A study of Mus musculus with 8 samples.

Results

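Genes linked to the basal layer and to keratinocyte growth were followed in embryonic mouse skin. They were the basal keratins Krt5, Krt14 and Krt15, the cadherin gene Cdh3, the receptor gene Egfr and the 14-3-3 gene Sfn, which is no specific marker of basal cells. Every probeset annotated to exactly 1 of these symbols was taken, which gave 15 of the 34945 probesets with a single gene symbol and 6 of 18193 genes. Krt5, Krt15 and Sfn had 1 probeset each, Cdh3 had 2, Krt14 had 3 and Egfr had 7. The samples were whole dorsal skin of wild-type embryos at embryonic day 14.5 (E14.5, 2 arrays), E16.5 (3 arrays) and E18.5 (3 arrays), all untreated as far as the labels say, with no strain given in the sources used here. The series asks how expression in skin is regulated as the epidermis matures. The labels do not say whether the arrays of a stage are separate embryos, and p-values therefore cover only the spread between these samples, which may be technical.

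The basal layer is the inner, dividing layer of the epidermis, and its cells are held to the basement membrane by integrins and hemidesmosomes. Its intermediate filaments are built from pairs of a type II keratin, Krt5, and a type I keratin, Krt14, with Krt15 as a further type I partner that is also known from the hair follicle bulge. Cells that leave the layer switch to the suprabasal keratins Krt1 and Krt10. Cdh3 encodes P-cadherin, an adhesion molecule of basal cells and of hair placodes and matrix. Egfr encodes the receptor for the epidermal growth factor family, which drives keratinocyte growth, and Sfn encodes 14-3-3 sigma, needed for keratinocytes to leave the cell cycle and known to be more abundant in differentiating than in basal cells. Whole skin carries no information on layers, so none of the values below shows where in the skin a transcript was.

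The promoters of 3 of the genes, picked with their values known, are shown. Whether these sequences bear on the course of a gene was not tested. RefSeq windows (assembly GRCm38.p6) gave the 250 bases before the annotated start of Krt5 (chr15:101712906-101713155, minus strand), Sfn (chr4:133602169-133602418, minus strand) and Egfr (chr11:16751953-16752202, plus strand). The single window listed for Krt14 starts inside the annotated gene and is not shown. Each window was searched on both strands for 6 motifs. The TATA box was searched as TATAAA. A variant of that box was searched as ATAAAA. The core bound by the Sp and Klf factors was searched as GGGCGG. The AP-2 site was searched as GCCNNNGGC. The AP-1 site was searched with any middle base, as TGANTCA. The last was the p53 family half-site, which p63 also reads, and matches stand in capitals.
Krt5: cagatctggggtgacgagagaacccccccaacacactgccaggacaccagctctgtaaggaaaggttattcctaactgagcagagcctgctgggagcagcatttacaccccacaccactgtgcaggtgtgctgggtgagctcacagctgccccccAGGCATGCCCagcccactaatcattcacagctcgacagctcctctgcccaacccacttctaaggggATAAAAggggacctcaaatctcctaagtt
Sfn: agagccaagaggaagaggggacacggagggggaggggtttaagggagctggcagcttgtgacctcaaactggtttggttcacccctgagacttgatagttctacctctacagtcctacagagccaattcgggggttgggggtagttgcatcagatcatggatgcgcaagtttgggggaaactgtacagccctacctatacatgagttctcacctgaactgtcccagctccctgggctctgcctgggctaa
Egfr: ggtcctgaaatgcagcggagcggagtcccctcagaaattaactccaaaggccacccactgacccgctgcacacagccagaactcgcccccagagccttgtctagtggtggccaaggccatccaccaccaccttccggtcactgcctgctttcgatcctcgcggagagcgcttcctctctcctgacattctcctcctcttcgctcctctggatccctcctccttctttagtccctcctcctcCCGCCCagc
The Krt5 window held a p53 family half-site from base -95 to base -86 and ATAAAA from base -29 to base -24, counted back from the start. Among all 32851 windows of that length, 7.13% held the half-site and 17.0% held ATAAAA. The Egfr window held GGGCGG on the minus strand, as 32.7% of windows did on either strand, and the Sfn window held none of the 6 motifs. None of the 3 windows held TATAAA (in 12.4% of all windows), the AP-2 letters (13.7%) or the AP-1 letters (6.75%). No binding was measured here.

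Signals are the deposited probeset intensities on a linear scale, which cannot be compared between probesets. Background was set on each array at percentile 95 of the signals from 80 probesets for olfactory or vomeronasal receptors, and it ran from 33.6 to 92.2. The E14.5 arrays stood apart from the others before any gene was considered. Their beta-actin 3′ over 5′ ratio was 6.49 and 6.91, against 1.11 to 1.37 on the other 6 arrays, their bioB hybridisation control 5592 and 5287 against 539.6 to 648.6, and the median of all their probesets 63.4 and 60.8 against 120.1 to 152.6. In every comparison with E14.5, therefore, stage and array preparation cannot be told apart. The later stages differed by less but without overlap. The beta-actin ratio was 1.35 to 1.37 at E18.5 and 1.11 to 1.14 at E16.5, the cre hybridisation control 25316 to 26636 at E18.5 and 17832 to 19152 at E16.5, and the background 62.2 to 92.2 at E18.5 and 33.6 to 53.2 at E16.5. Array preparation and stage cannot be told apart in that comparison either. Probesets of one gene also disagreed, most often between E14.5 and E16.5. Of 5068 genes with 2 or more probesets called at E16.5 against E14.5, 2540 (50.1%) had calls in opposite directions, and at E18.5 against E16.5 this held for 83 of 498 (16.7%).

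Krt5 and its partners Krt14 and Krt15 were already strong at E14.5, were 2.63 to 3.33 times brighter at E16.5 by their brightest probesets, and had no called change after that in those probesets. In bulk skin, more cells of a type and more RNA per cell cannot be told apart. Krt5 gave signals of 5932 and 7745 at E14.5, 16163, 18903 and 18598 at E16.5, and 22701, 21090 and 19398 at E18.5. The 3 stages did not overlap, and both E14.5 arrays lay far below all others. Krt5 averaged 17888 ± 1502 at E16.5 (SD, n = 3) and 6838 ± 1282 at E14.5 (SD, n = 2), a rise of 1.39 ± 0.14 SE on the log2(signal + 16) scale used for every log2 change (adjusted p = 7.84e-06). At E18.5 it averaged 21063 ± 1652 (SD, n = 3), 0.24 ± 0.12 above E16.5 on the log2 scale, which was not called (adjusted p = 0.249) and turned to -0.11 under quantile normalization. Against E14.5, the E18.5 signal was 3.10-fold higher (log2 1.63 ± 0.14 SE, adjusted p = 2.70e-06). Krt5 ranked at the 99.7th to 99.8th percentile of probesets on all E16.5 and E18.5 arrays and at 96.6 and 97.6 on the E14.5 arrays. The highest signal of any probeset was 27950 to 30874 on the E16.5 arrays and 38570 to 39825 on the E18.5 arrays, and whether this upper end limits differences between bright probesets was not tested.

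Krt14, the type I partner of Krt5, followed the same course in its brightest probeset. Probeset 1423935_x_at gave 4195 and 4963 at E14.5, 13938, 15505 and 15386 at E16.5, and 19929, 17725 and 16173 at E18.5, again with no overlap between stages. It was 3.27-fold higher at E16.5 than at E14.5 (log2 1.71 ± 0.13 SE, adjusted p = 9.34e-07). The E18.5 minus E16.5 difference was 0.26 ± 0.11 (adjusted p = 0.170), and -0.02 under quantile normalization. The x in that probeset's name marks probes that may cross-hybridise to other transcripts. The second Krt14 probeset, 1460347_at, is annotated to the same sequence record without that mark. Its signals were 1708 and 2801 (E14.5), 11221, 12649 and 12862 (E16.5), and 18604, 16111 and 13985 (E18.5), a 5.59-fold difference between E16.5 and E14.5 (log2 2.47 ± 0.20 SE, adjusted p = 1.38e-06). The 2 probesets of one record thus gave differences in the same direction and of unequal size.

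The dimmest Krt14 probeset, 1455573_at, was the only probeset of the 15 called higher at E18.5 than at E16.5. It gave 111 and 171 at E14.5, 327, 351 and 334 at E16.5, and 832, 425 and 832 at E18.5. The groups did not overlap, but E18.5 replicate 2 stood much closer to E16.5 than the other E18.5 arrays. The rise was 0.95 ± 0.27 SE (log2, adjusted p = 0.0478), and leaving out any E16.5 array, E18.5 replicate 1 or E18.5 replicate 3 ended the call (adjusted p = 0.113 to 0.149). Its E16.5 minus E14.5 rise of 1.20 ± 0.30 (adjusted p = 0.00536) lost its call without E14.5 replicate 1 (adjusted p = 0.0606). It shrank to 0.24 under median centring (adjusted p = 0.496) and to 0.27 under quantile normalization (adjusted p = 0.523).

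Krt15 gave 2886 and 4004 at E14.5, 10308, 11241 and 12541 at E16.5, and 15412, 14777 and 11466 at E18.5. E18.5 overlapped E16.5, and both lay above E14.5. The rise at E16.5 over E14.5 was 3.33-fold (log2 1.73 ± 0.17 SE, adjusted p = 7.89e-06), and the later difference of 0.28 ± 0.15 was not called (adjusted p = 0.269).

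**Figure D1:**
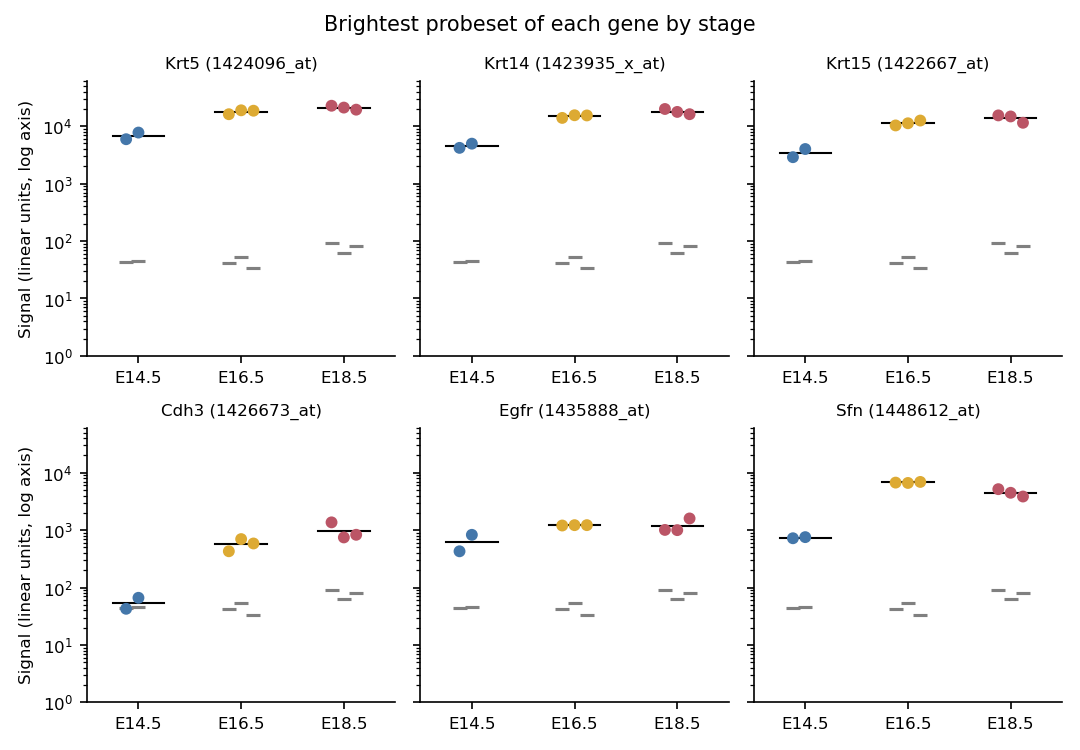
Signal (linear units on a log axis) of the brightest probeset of each gene on the 8 arrays, grouped by stage; black bars are stage means and grey ticks the background of each array. The keratins and Sfn lie far above background at every stage, E14.5 lies below the later stages in all 6 panels, and Sfn is the gene whose E18.5 arrays all lie below its E16.5 arrays.

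Relative to Krt5 on the same array, Krt14 and Krt15 gave overlapping values at E18.5 and E16.5. The log2 difference Krt14 minus Krt5 was -0.19 to -0.26 at E18.5 and -0.21 to -0.29 at E16.5, which overlapped, against -0.50 and -0.64 at E14.5. For Krt15 minus Krt5 it was -0.76 to -0.51 at E18.5 and -0.75 to -0.57 at E16.5, against -1.04 and -0.95 at E14.5. Only shifts of such a difference between arrays can be read, since the probesets differ in brightness for a given amount of RNA. The mean shift at E16.5 against E14.5 was 0.31 for Krt14 and 0.34 for Krt15 on the log2 scale, and at E18.5 against E16.5 it was 0.02 and 0.05. Exact two-sided permutation tests over arrays gave p = 0.1 for both early shifts, the smallest p that 3 against 2 arrays allow, and p = 0.5 and p = 0.6 for the later ones (adjusted over 10 tests of 5 pairs, 0.2, 0.2, 0.714 and 0.75). The pairs were chosen after the values were seen.

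Cdh3 started at the edge of detection and was far brighter at E16.5 by its brightest probeset. Probeset 1426673_at gave 42.7 and 66.3 at E14.5, where only E14.5 replicate 2 was above background, 429, 698 and 585 at E16.5, and 1365, 746 and 830 at E18.5. No stages overlapped, and E18.5 replicate 1 stood above the other E18.5 arrays. The signal was at least 10.4-fold higher at E16.5 than at E14.5, counting E14.5 arrays at the higher of their signal and background (log2 3.05 ± 0.30 SE for the measured signals, adjusted p = 6.81e-06). Between E18.5 and E16.5 the difference was 0.74 ± 0.27, a 1.69-fold higher mean that was not called (adjusted p = 0.104). The other Cdh3 probeset, 1441255_at, was at or below background on both E14.5 arrays and on 1 of 3 E18.5 arrays, with signals of 2.50 to 161 over all stages. It was called at least 1.61-fold higher at E16.5 than at E14.5 (adjusted p = 0.00766), a call lost without E14.5 replicate 1 (adjusted p = 0.0842) and under median centring (adjusted p = 0.171).

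Egfr gave no single answer. Its brightest probeset, 1435888_at, gave 428 and 828 at E14.5, 1203, 1220 and 1221 at E16.5, and 1008, 999.5 and 1597 at E18.5. The E16.5 arrays were almost identical, E18.5 lay on both sides of them, and both E14.5 arrays lay below. The signal was 2.04-fold higher at E16.5 than at E14.5 (log2 1.01 ± 0.27 SE, adjusted p = 0.00826), but without E14.5 replicate 1 it was not called (log2 0.54, adjusted p = 0.113), nor under quantile normalization or median centring (adjusted p = 0.0823 and 0.868). The E18.5 minus E16.5 difference was -0.05 ± 0.24 (adjusted p = 0.916).

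Probeset 1424932_at went the other way. It gave 1194 and 1271 at E14.5, 515, 491 and 421 at E16.5, and 576, 801 and 616 at E18.5. Here E14.5 lay above both later stages, and E18.5 lay above E16.5 without overlap. The E16.5 signal was 2.60-fold lower than at E14.5 (log2 -1.35 ± 0.18 SE, adjusted p = 7.35e-05), and E18.5 was 0.46 ± 0.16 above E16.5 on the log2 scale without a call (adjusted p = 0.0980). Probeset 1451530_at is annotated to the same Egfr sequence record and moved oppositely. Its signals were 9.90 and 24.0 at E14.5, both below background, 233, 269 and 247 at E16.5, and 350, 483 and 228 at E18.5. It was at least 5.57-fold higher at E16.5 than at E14.5 (log2 3.05 ± 0.33 SE, adjusted p = 1.54e-05), and its E18.5 arrays overlapped E16.5.

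Of the remaining Egfr probesets, 1460420_a_at was above background on all 8 arrays. It gave 47.3 and 62.5 at E14.5, 538, 604 and 503 at E16.5, and 601, 641 and 592 at E18.5. The E14.5 signals were close to the backgrounds of those arrays, 43.9 and 45.7, so the size of a fold against them is uncertain. The later stages overlapped and lay far above E14.5, a 10.1-fold difference between E16.5 and E14.5 (log2 3.00 ± 0.19 SE, adjusted p = 3.41e-07). The pair 1432647_at and 1454313_at, which share another record, reached at most 211.8 on any array, were below background on both E14.5 arrays and were called higher at E16.5 by at least 2.32-fold and at least 1.52-fold. The call of 1454313_at (adjusted p = 0.0270) was lost under median centring (log2 0.17, adjusted p = 0.711) and quantile normalization (log2 0.61, adjusted p = 0.199). It was also lost without E14.5 replicate 2, E16.5 replicate 1 or E16.5 replicate 2 (adjusted p = 0.124, 0.0743 and 0.0926). Probeset 1457563_at, with signals of 1.34 to 35.9, was below background on all 8 arrays, so its call between E16.5 and E14.5 (log2 -1.12, adjusted p = 0.0374) is not a measured change. Between E14.5 and E16.5, then, 5 of the 7 Egfr probesets were called higher and 2 lower, against 38.9% and 18.7% of all probesets. Of those called higher, 1432647_at, 1454313_at and 1451530_at were below background on both E14.5 arrays. Of the 2 called lower, 1457563_at was never above background. Between E16.5 and E18.5 limma called none of the 7, where 6.27% of all probesets were called higher and 4.44% lower. Limma gave 1 of the 7, 1424932_at, an unadjusted p under 0.05, as it did 9620 of all 34945 probesets.

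**Figure D2:**
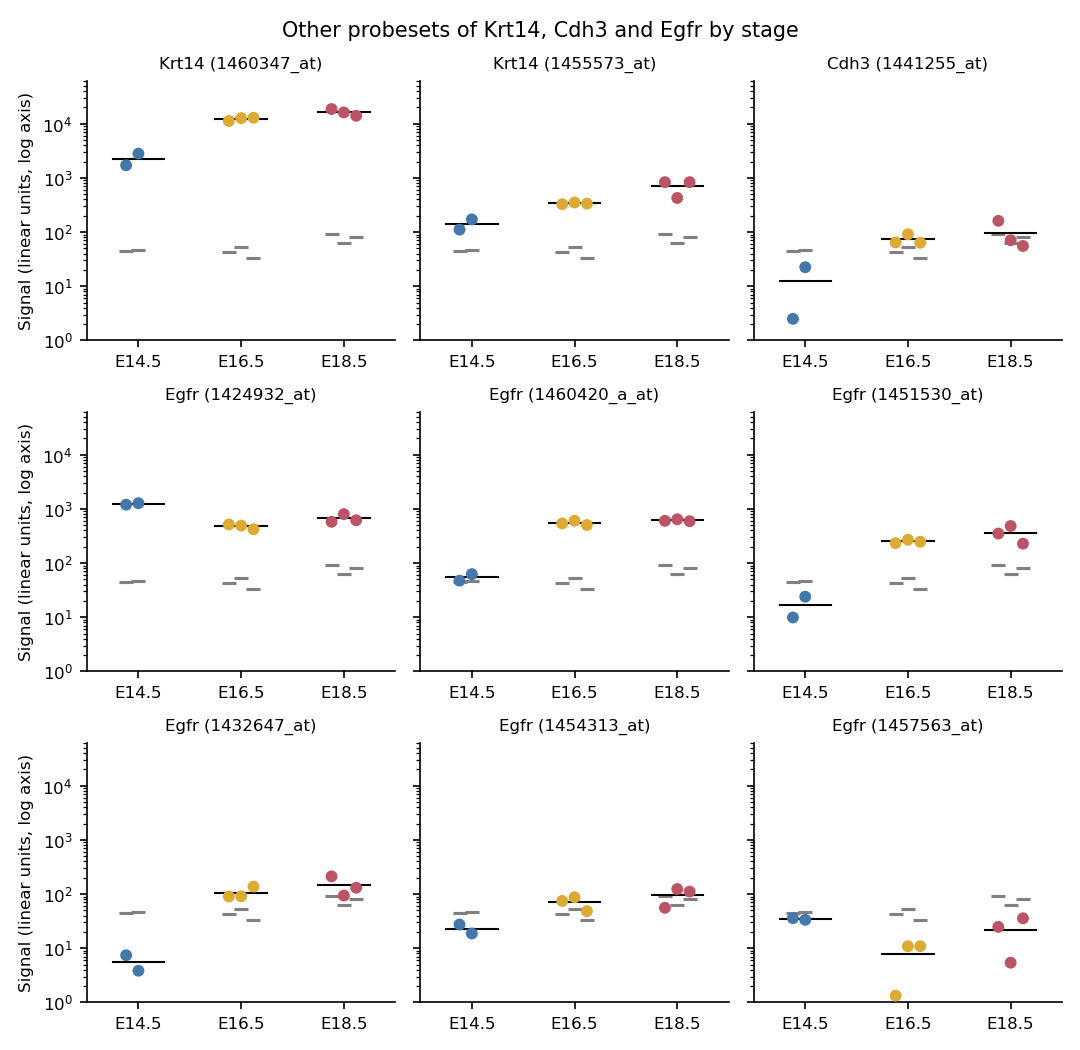
Signal (linear units on a log axis) of the other 9 probesets of Krt14, Cdh3 and Egfr by stage, with stage means as black bars and the background of each array as grey ticks. Egfr 1424932_at is highest at E14.5 while 1460420_a_at and 1451530_at are lowest there, and Egfr 1457563_at lies below background throughout.

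Sfn was higher at E16.5 than at either other stage. It gave 722 and 755 at E14.5, 6719, 6628 and 6906 at E16.5, and 5166, 4468 and 3847 at E18.5. All 3 E16.5 arrays lay above all E18.5 arrays, and all of these lay far above E14.5. Sfn averaged 6751 ± 142 at E16.5 (SD, n = 3) and 738 ± 23.3 at E14.5 (SD, n = 2), a 9.14-fold difference (log2 3.17 ± 0.14 SE, adjusted p = 3.75e-08). At E18.5 it fell to 4494 ± 660 (SD, n = 3), 1.51-fold below E16.5 (log2 -0.60 ± 0.12 SE, adjusted p = 0.0130). That fall was the only one called among the 6 brightest probesets, and it missed the threshold without any 1 of the E16.5 arrays (adjusted p = 0.0541 to 0.0676) and without a variance trend (adjusted p = 0.0663), with a log2 change of -0.71 to -0.49 over all alternatives. Within arrays, Sfn minus Krt5 was -2.33 to -2.13 at E18.5 and -1.51 to -1.26 at E16.5, a shift of -0.83 with no overlap (exact two-sided permutation p = 0.1, the smallest that 3 against 3 arrays allow, 0.2 adjusted over the 10 tests).

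Counted over all 15 probesets, 13 were called higher and 2 lower at E16.5 than at E14.5, where 38.9% of all single-symbol probesets were called higher and 18.7% lower. The median log2 change was 1.72, against 0.38 over all probesets tested. Of the 2 falls, 1 was Egfr 1457563_at, which was below background throughout. The number called, 15, was 11 to 15 with single arrays left out, 11 under median centring and 12 under quantile normalization. Under median centring the calls of Krt14 1455573_at, Cdh3 1441255_at and Egfr 1435888_at and 1454313_at were lost. By brightest probeset all 6 genes were called higher, where 37.1% of all genes were called higher and 20.8% lower. With single arrays left out, 5 to 6 were called. Scaling moved this level: under median centring, where the median change of all probesets was -0.57, Krt5 was 0.44 and Krt15 0.78 higher at E16.5 than at E14.5 on the log2 scale. At E18.5 against E14.5, 13 were called higher and 1 lower, against 42.9% and 16.9% of all probesets. At E18.5 against E16.5, 1 was called higher (Krt14 1455573_at) and 1 lower (Sfn), against 6.27% and 4.44% of all probesets, and the median change was 0.36, against 0.12 over all. In that comparison 6 of the 15 had every E18.5 array above every E16.5 array and 1 had every one below, where 23.2% and 13.6% of all probesets did so.

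The difference between the intervals was tested as the second change minus the first. It was called lower for 9 of the 15 probesets and higher for 1, against 29.1% and 15.8% of all probesets. Sfn had the largest of them at -3.76 ± 0.22 SE (adjusted p = 1.26e-06), and Krt5 (-1.16 ± 0.22, adjusted p = 0.00162), Krt15 (-1.45 ± 0.28, adjusted p = 0.00155) and Cdh3 1426673_at (-2.31 ± 0.48, adjusted p = 0.00257) were also called. Under median centring the calls of Krt5, Krt15 and Krt14 1423935_x_at were lost (adjusted p = 0.330, 0.134 and 0.0620), and under quantile normalization that of Cdh3 1426673_at (adjusted p = 0.0898). Egfr 1432647_at (-2.12 ± 0.60, adjusted p = 0.0141) lost its call under median centring (adjusted p = 0.103), with a pseudocount of 64 (adjusted p = 0.0664) and without E16.5 replicate 3 (adjusted p = 0.0829). The test uses E14.5, so it carries the same limit as the first interval.

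**Figure D3:**
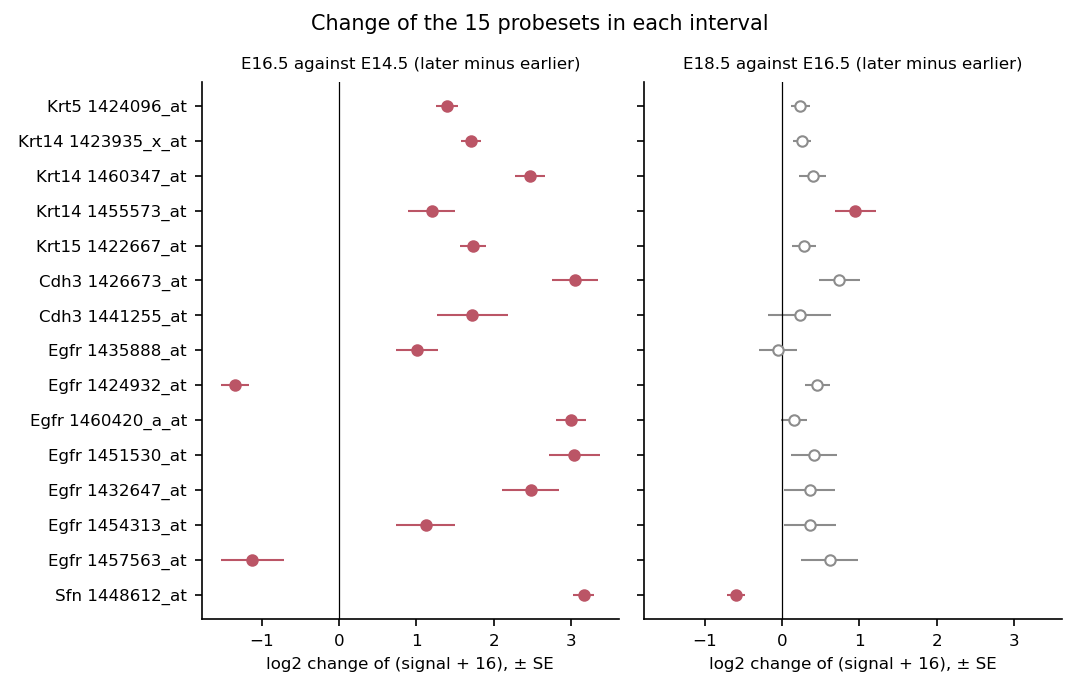
Log2 change of (signal + 16) with its SE for the 15 probesets, E16.5 against E14.5 on the left and E18.5 against E16.5 on the right; filled red points were called by limma at an adjusted p under 0.05 and open grey points were not. On the left 13 points lie right of 0 and 2 Egfr probesets left of it, and on the right only Krt14 1455573_at and Sfn are filled.

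The summed signals of most other cell types of whole skin changed in the same samples. Neural crest and Schwann genes (4) summed to 4222 and 4353 (E14.5), 3854 to 4290 (E16.5) and 3350 to 4449 (E18.5). Those stages overlapped, and Erbb3 made up most of the E14.5 sums (2935 and 3191). Macrophage genes (7) summed to 16891 and 13748 (E14.5), 6861 to 7796 (E16.5) and 8620 to 11549 (E18.5). The summed signal of 13 general epithelial genes was 91502 and 100146 (E14.5), 67700 to 73555 (E16.5) and 68096 to 80127 (E18.5). It was highest on the E14.5 arrays, where the keratins were lowest. At E16.5 against E14.5, 7 of these genes were called higher and 6 lower (37.1% and 20.8% of all genes). Their median log2 change was 0.48, against 0.29 over all genes, so the sum and the median went opposite ways. Bright probesets weigh most in a sum, and Perp (24065 and 25702 at E14.5) and Dsp (18932 and 21427) were among the 6 called lower. The sum of 10 fibroblast genes was 76198 and 74782 (E14.5), 127934 to 132976 (E16.5) and 139900 to 171938 (E18.5). Skeletal muscle genes (10) summed to 10617 and 19292 (E14.5), 69739 to 77028 (E16.5) and 77961 to 115414 (E18.5). At E16.5 against E14.5, 7 of the 10 were called higher and 1 lower, with a median log2 change of 2.81. Endothelial genes (8) summed to 2643 and 2546 (E14.5), 7076 to 8353 (E16.5) and 6276 to 6335 (E18.5), with 7 called higher and 1 lower at E16.5 against E14.5 and a median of 2.66. Most genes of both lists were called higher in that interval. Over all genes, 37.1% were called higher and 20.8% lower, with a median log2 change of 0.29. Adipocyte genes (7) summed to 4251 and 3497 (E14.5), 9438 to 13287 (E16.5) and 43725 to 57415 (E18.5). Melanocyte genes (6) summed to 3660 and 5331 (E14.5), 3299 to 4664 (E16.5) and 7671 to 12808 (E18.5). Erythroid genes (6) had their highest sums at E14.5, 18611 and 13895, followed by 5083 to 9716 (E16.5) and 1859 to 2669 (E18.5). Periderm and simple epithelial genes (8) also did, at 25548 and 18822, followed by 4988 to 8132 (E16.5) and 2813 to 6389 (E18.5). Of these 8, 2 were called higher and 4 lower at E16.5 against E14.5, with a median log2 change of -2.08 (37.1% and 20.8% of all genes). Krt23 was among the 2, with 278.7 and 174.0 at E14.5, and made up most of the E18.5 sums (2377, 5211 and 2015). As with Erbb3 in the neural crest list, single probesets made up most of some other sums on both E14.5 arrays. These were Tek (1484 and 1281) for endothelial cells, Mitf (2571 and 3668) for melanocytes and Hbb-y (15884 and 11373) for erythroid cells. All of these fell at E16.5 against E14.5 (log2 -1.26, -2.06 and -5.11). The median change of the list was 2.66 for endothelial cells, 0.84 for melanocytes and -1.29 for erythroid cells. No gene of these lists was below background on all arrays, and their part in the results for the basal genes was not tested.

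Other genes of the basal layer and its adhesion to the basement membrane were mostly higher at E16.5 than at E14.5 as well. Of 17 measured, 12 rose and 4 fell at E16.5 against E14.5, with a median log2 change of 1.64, where 37.1% of all genes rose and 20.8% fell and the median was 0.29. Col7a1, the anchoring fibril collagen, gave 179.7 and 163.8 at E14.5, 5185, 5241 and 5135 at E16.5, and 3907, 3394 and 5209 at E18.5, and was 30.2-fold higher at E16.5 than at E14.5 (log2 4.79 ± 0.17 SE, adjusted p = 1.95e-08). Bcam, a laminin receptor, was 23.5-fold higher (log2 4.31 ± 0.17 SE). The 4 that fell were Cd151 (log2 -1.82), the integrin gene Itga6 (-1.31), Trp63 (-1.27) and Cd44 (-0.61), named after their values were seen. At E18.5 against E16.5, 3 of the 17 rose and 0 fell, with a median of 0.16 against 0.12, where 6.69% of all genes rose and 5.21% fell. These were Krt17, Dst and Trp63.

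Krt17, a keratin of the hair follicle and of embryonic epidermis whose gene lies in the same cluster as Krt14, gave 7405, 4825 and 4364 at E18.5, against 1697, 2107 and 1865 at E16.5, with no overlap (log2 1.51 ± 0.19 SE, adjusted p = 0.00127). Dst, which encodes the hemidesmosome plakin, was 1.78-fold higher (adjusted p = 0.00778), which did not pass by its probesets' median (adjusted p = 0.0891). Trp63, the p63 factor of stratified epithelium, gave 5926 and 7703 at E14.5, 2698, 3049 and 2630 at E16.5, and 4447, 6104 and 4085 at E18.5. It was still lower at E18.5 than at E14.5 (log2 -0.49, adjusted p = 0.0374). Its rise of 0.78 at E18.5 against E16.5 (log2, adjusted p = 0.0141) did not pass when E16.5 replicate 1 or 3 was dropped (adjusted p = 0.0581 and 0.0692) or when its probesets were averaged (adjusted p = 0.227). E18.5 replicate 1 was the highest array of its stage for Krt17, as it was for the brightest probesets of Krt5, Krt14, Krt15, Cdh3 and Sfn. The summed signal of 15 genes of the follicle bud and outer root sheath, Krt17 among them, was also highest there. It was 45694 on that array and 32240 and 31881 on the other E18.5 arrays, against 15877, 18637 and 16431 on the E16.5 arrays, and its part in the keratin values was not tested. Of these 15 genes, 9 rose and 1 fell at E18.5 against E16.5, with a median log2 change of 1.21 (6.69% and 5.21% of all genes, median 0.12), led by Krt79 (6.19-fold, log2 2.62 ± 0.27 SE) and Lhx2 (3.89-fold, log2 1.93 ± 0.38 SE). The Lhx2 call was lost without E16.5 replicate 3 (adjusted p = 0.0516) and with a pseudocount of 1 (adjusted p = 0.0939). At E16.5 against E14.5, 8 of the 15 rose and 6 fell (37.1% and 20.8% of all genes), led by the same pair, Krt79 by at least 29.0-fold and Lhx2 by at least 13.98-fold.

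Among 20 ligands, partners and regulators of Egfr, 0 rose and 3 fell at E18.5 against E16.5, with a median log2 change of -0.25, where 6.69% of all genes rose and 5.21% fell and the median was 0.12. All 3 were ligands. Erbb4, counted among the 20, was at or below background on every array. Ereg, which encodes epiregulin, gave 820 and 1436 at E14.5, 1350, 1512 and 1432 at E16.5, and 99.0, 384 and 188 at E18.5. Its E18.5 arrays lay far below every other array, a 7.42-fold fall from the E16.5 level (log2 -2.78 ± 0.38 SE, adjusted p = 0.00199) that was called in all 19 alternatives. Btc, which encodes betacellulin, gave 597, 922 and 604 at E18.5, against 1213, 2842 and 1954 at E16.5 (log2 -1.43 ± 0.28 SE, adjusted p = 0.0116), and was not called after dropping E16.5 replicate 3 (adjusted p = 0.0566) or averaging its probesets (adjusted p = 0.0770). Tgfa, which encodes TGF-alpha and was named after its values were seen, gave 430, 340 and 267 at E18.5, against 659, 629 and 542 at E16.5 (log2 -0.81, adjusted p = 0.0361). Dropping any single E16.5 array, or E18.5 replicate 2 or 3, ended that call (adjusted p = 0.0688 to 0.141), and the median of its probesets gave 0.05. At E16.5 against E14.5, 11 of the 20 rose and 6 fell (37.1% and 20.8% of all genes), with Btc (19.0-fold, log2 4.05 ± 0.32 SE) and Cbl, the ubiquitin ligase that ends Egfr signalling (10.5-fold, log2 3.26 ± 0.20 SE), the largest by size. By the median over its probesets, Cbl was not called (adjusted p = 0.455).

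**Figure D4:**
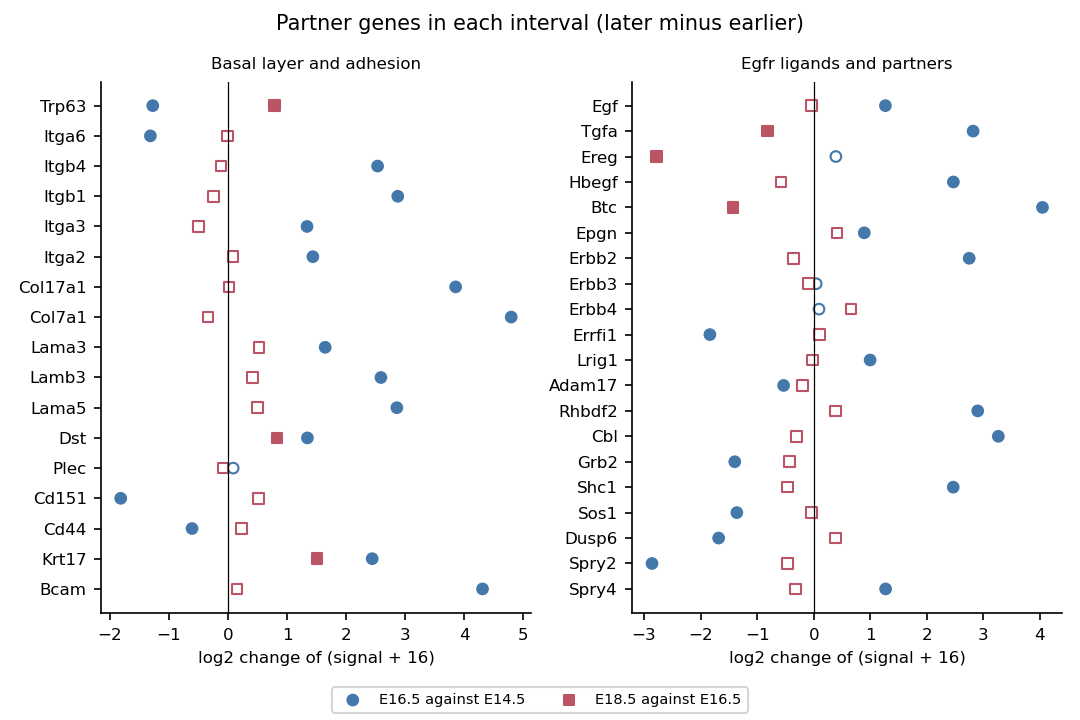
Log2 change of (signal + 16) for 17 basal layer and adhesion genes (left) and 20 Egfr ligands, partners and regulators (right); blue circles are E16.5 against E14.5, red squares E18.5 against E16.5, and filled symbols were called by limma. Circles spread over a wide range on both sides of 0, while the filled squares are Krt17, Dst and Trp63 on the left, all above 0, and the ligands Ereg, Btc and Tgfa on the right, all below 0.

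Genes related to Sfn and Cdh3 are read against 37.1% of all genes higher and 20.8% lower at E16.5 than at E14.5 (median log2 change 0.29), and 6.69% higher and 5.21% lower at E18.5 than at E16.5. Of the 6 other 14-3-3 genes, 0 rose and 5 fell at E16.5 against E14.5, with a median log2 change of -0.81, led by Ywhag (-1.97) and Ywhab (-1.42). Another 2 calls were rises at E18.5 against E16.5, Ywhag (log2 0.59 ± 0.12 SE, adjusted p = 0.0140) and Ywhae (0.31 ± 0.09 SE, adjusted p = 0.0492). The direction of Ywhag depended on its probesets, since their median gave 2.86 for E16.5 against E14.5 where the brightest gave -1.97, and -0.65 where the brightest gave 0.59 for E18.5 against E16.5. Ywhae lost its call in 13 of 19 alternatives. Of 11 genes for other classical cadherins, catenins and the junction linkers Vcl (vinculin) and Afdn (afadin), 3 rose and 7 fell at E16.5 against E14.5. The N-cadherin gene Cdh2 (-2.11) and Vcl (-2.02, but 1.59 by the mean of its probesets) fell furthest, and 2 rose and 2 fell at E18.5 against E16.5. Cdh1, which encodes E-cadherin, gave 8228 and 8508 at E14.5, 3775, 4705 and 3618 at E16.5, and 7390, 7346 and 5581 at E18.5. It was lower at E16.5 than at E14.5 (log2 -1.06, adjusted p = 1.64e-04) and higher at E18.5 than at E16.5 (log2 0.74 ± 0.14 SE, adjusted p = 0.00970, and 0.0554 without E16.5 replicate 3). The E18.5 minus E14.5 difference was -0.32 and not called (adjusted p = 0.109). Jup, which encodes plakoglobin, fell by 0.71 ± 0.12 on the log2 scale at E18.5 against E16.5 (SE, adjusted p = 0.00642). Of 12 suprabasal genes, read against the same shares, 8 rose and 0 fell at E16.5 against E14.5, led by Calml3 (14.4-fold) and Lypd3 (10.2-fold), and 0 rose and 3 fell at E18.5 against E16.5. The keratin Krt77 fell furthest, to 545 ± 193 at E18.5, against 20703 ± 412 at E16.5 (SD, n = 3 each), and Notch3 fell 1.69-fold (adjusted p = 0.0175). The Notch3 call was lost without any 1 of the E16.5 arrays (adjusted p = 0.0638 to 0.0727) and with no variance trend (adjusted p = 0.0646).

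The genes with the most similar course over the 8 arrays were found by the root-mean-square difference of mean-centred log2 signals. They were sought among 10329 or 10330 candidates above background on every array. Genes whose symbols are only clone or accession numbers were left out of the candidates. Krt14 was the third nearest to Krt15 (0.10), after Dtd1 and Ncaph (0.09 each), and 8 candidates were nearer to Krt14 than Krt15 was, led by Anxa5 (0.06), Mtfr1l and Eif6. Nearest to Krt5 were Gpank1 (0.07), Tspan15 and Tmem86a, and 91 candidates were nearer to it than Krt14 (0.15). Nearest to Sfn were Rps6kb2 (0.08), Yif1b and Get3, nearest to Egfr 1435888_at Slc12a5 (0.11), Notch4 and Ushbp1, and nearest to Cdh3 the melanosome gene Pmel (0.24), Tmem107 and Tgif1. The median difference from a candidate was 0.65 for Krt5, 0.73 for Krt14, 0.75 for Krt15, 1.14 for Sfn, 0.62 for Egfr and 1.40 for Cdh3. All profiles share the same 8 arrays, and nothing about function follows from the match.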

How the data were processed

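The series holds 8 arrays of 1 expression platform. The authors deposited 1 linear signal intensity per probeset and array. Affymetrix Expression Console 1.1 and PLIER 2.0 are named, per the submitters' processing notes, without a role; the sources used here do not give how background and array scaling were handled. Per the labels' protocols, Trizol-extracted RNA was amplified with random hexamers.

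Probesets with several symbols (932), with none (9211) and control probesets (64, partly among these) were left out. Signals were analysed as log2(signal + 16) with limma 3.58.1 in R 4.3.3, with 1 mean per stage over all 8 arrays and eBayes with a variance trend. Benjamini-Hochberg adjustment ran over all 34945 probesets, and a call means an adjusted p under 0.05. A gene in a list is its probeset with the highest mean. The fit recovered 168 of 200 probesets simulated with a log2 change of 1.5 between E18.5 and E16.5 among 34945, with 9 false calls. Members and lists were chosen with earlier results of these data known. By rule, the text names all member probesets, the 2 called genes of each list that changed most in each interval, and the 3 genes nearest to each member; further genes were picked with their values known. Alternatives covered pseudocounts, scaling, a filter on dim probesets, variance settings, array weights, the stages fitted, probeset summaries and each array left out. The number of arrays limits the precision.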

Additional observations from a re-analysis of the deposited data

Results flagged for a closer look

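Probeset 1427841_at, annotated to both Krt17 and Krt14 and so left out of the comparisons, was above background on 5 of 8 arrays. It gave 2.94 and 1.78 at E14.5, 46.3, 83.0 and 67.7 at E16.5, and 161.7, 51.2 and 108.7 at E18.5, where replicate 2 was below background. Which of the 2 genes it measured was not tested. Groups of 2 or 3 arrays were too small for a test of single outlying arrays.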

How the results depend on the processing

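Across the alternatives, 2093 recomputed values were taken as unchanged. These were tests that kept direction and call, together with counts or values without a test that stayed equal or close. Of the tests, 86 lost a call, 12 gained one and 21 changed sign, and 117 counts or values without a test moved. The number of member probesets called at E18.5 against E16.5 was 2, but 1 under median centring, a pseudocount of 1 or quantile normalization, 0 with no variance trend, and 0 to 2 with single arrays left out. By gene the count was 1, but 0 with no variance trend and 0 to 1 with arrays left out. For the second change minus the first, 5 genes were called, all lower, but 2 under median centring. Of all genes, 27.5% were called lower and 17.6% higher there. The cause of these shifts was not tested. Signs changed as follows (log2). For E18.5 against E16.5, quantile normalization gave -0.11 for Krt5, -0.023 for Krt14 1423935_x_at, -0.038 for Cdh3 1441255_at and 0.038 for Egfr 1435888_at. With single arrays left out, Cdh3 1441255_at ranged from -0.16 to 0.49 and Egfr 1435888_at from -0.27 to 0.063. Egfr gave 0.33 with the mean and 0.42 with the median of its probesets, and Tgfa 0.047 and Ywhag -0.65 with the median. For E16.5 against E14.5, the mean and median of probesets gave 1.01 and 2.86 for Ywhag and 1.59 by both for Vcl. Egfr 1435888_at gave -0.11 for E18.5 against E14.5 under median centring. For the second change minus the first, median centring gave 0.079 for Egfr 1454313_at and 0.59 for Krt14 1455573_at, which gave 0.77 under quantile normalization and -0.53 to 0.068 with arrays left out. No paired analysis was possible because the replicate numbers follow accession order and pair no arrays. Signals near or below background limit both Cdh3 probesets and 5 Egfr probesets at E14.5, 1460420_a_at among them.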
